A study of Mus musculus with 8 samples.

Results

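The platelet-derived growth factor (PDGF) family was examined in the aorta of newborn mice lacking fibulin-4, which takes part in elastic fibre formation, and of wild-type controls. It comprised 6 genes chosen by name, the ligand genes Pdgfa, Pdgfb, Pdgfc and Pdgfd and the receptor genes Pdgfra and Pdgfrb, out of 22180 genes with a name on the array. Each had 1 row in the table. The mice were of strain C57BL/6 and were killed at postnatal day 0. The groups were wild-type ascending, wild-type descending, fibulin-4 knockout ascending and fibulin-4 knockout descending aorta. The ascending segment began at the aortic valve and ended at the ductus arteriosus, and the descending segment lay between the vena cava and the diaphragm. Every sample was a pool of 8 segments of the same genotype and segment, and 2 pools per group gave 8 arrays. The labels call the mice lacking the gene knockouts and give neither the allele nor the littermate status of the controls. Fibulin-4 itself was not analysed here, and the genotypes are those of the labels.

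PDGF ligands are secreted dimers that bind receptor tyrosine kinases. PDGF-A signals through the alpha receptor and PDGF-B through both receptors, whereas PDGF-C and PDGF-D are secreted with a CUB domain that proteases must remove before they can bind. In developing vessels PDGF-B from endothelial cells recruits and expands mural cells (smooth muscle cells and pericytes), which carry the beta receptor, and the alpha receptor is mainly carried by fibroblasts and other mesenchymal cells.

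All values are log2 expression values, on which 1 unit is a doubling; a level of one gene is not compared with that of another, because probes differ in brightness. Medians over all rows of the table lay between 4.68 and 4.89 on the 8 arrays. The interquartile range over named genes was 1.80 and 1.74 on replicate 2 of wild-type ascending and descending aorta and 2.14 to 2.28 on the other 6 arrays. These 2 narrow wild-type arrays thus stood apart. Differences of the 6 genes and medians of the pathway lists are also given without them. Differences of cell type markers are given only with them. In the mean of the smooth muscle, fibroblast and myeloid markers, each narrow array was the lower wild-type array of its segment. Smooth muscle markers were bright in every group (Acta2, smooth muscle actin, 12.10 to 12.45 on the 8 arrays). Skeletal muscle markers (12 genes) had a mean of 7.01 and 8.37 on the wild-type ascending arrays and 5.50 to 6.45 on the other 6, and adipocyte markers (11 genes) 7.77 and 7.24 on the wild-type descending arrays and 5.70 to 6.51 on the other 6. In pooled tissue, fewer cells of a type and less RNA per cell cannot be told apart.

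Pdgfrb, the gene of the beta receptor, had the largest difference between genotypes among the 6 genes, but did not pass the test across all genes. Its log2 value was 7.60 and 7.38 in the wild-type ascending, 7.67 and 7.66 in the wild-type descending, 8.0 and 7.80 in the knockout ascending and 8.75 and 8.57 in the knockout descending arrays. All 4 knockout arrays lay above all 4 wild-type arrays, an arrangement that 4.76% of the 22180 genes showed. Over both segments the difference was 0.70 (SE 0.17, 95% interval 0.32 to 1.09), or 1.63-fold. Its unadjusted limma p was 0.00247 and its adjusted p over all genes was 0.225. It was larger than the difference of 97.6% of all genes and of 93.5% of the brightest 20% of genes, which hold Pdgfrb and whose median difference was 0.24.

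By segment, the knockout arrays stood 0.99 (SE 0.24, 1.99-fold) above the wild-type in the descending and 0.41 (SE 0.24, 1.33-fold) above it in the ascending aorta. The limma p was 0.00244 in the descending aorta (adjusted p = 0.581) and 0.126 in the ascending (adjusted p = 0.648). The order of group means was wild-type ascending (7.49 ± 0.16, SD, n = 2), wild-type descending (7.66 ± 0.01), knockout ascending (7.90 ± 0.14) and knockout descending (8.66 ± 0.13). Each neighbouring pair of groups was free of overlap on its arrays. The smallest gap was between the highest wild-type ascending (7.60) and the lowest wild-type descending array (7.66). The order was taken from these same values, and its share over all genes was not counted, so this separation is a description. The ascending effect minus the descending effect was -0.59 (SE 0.34, 95% interval -1.36 to 0.19, limma adjusted p = 1), so a difference of the knockout effect between the segments was not shown. Within the knockout the ascending value lay 0.75 below the descending value (log2 difference -0.75, SE 0.24, 95% interval -1.30 to -0.21, limma adjusted p = 1), and within the wild-type the difference was -0.17 (SE 0.24). Without both narrow wild-type arrays the Pdgfrb difference was 0.64 over both segments, 0.99 in the descending and 0.30 in the ascending aorta. After quantile normalization it was 0.47, 0.75 and 0.19. The ascending value thus moved by over 1.5 times under that scaling, and all 3 values stayed above 0.

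**Figure D1:**
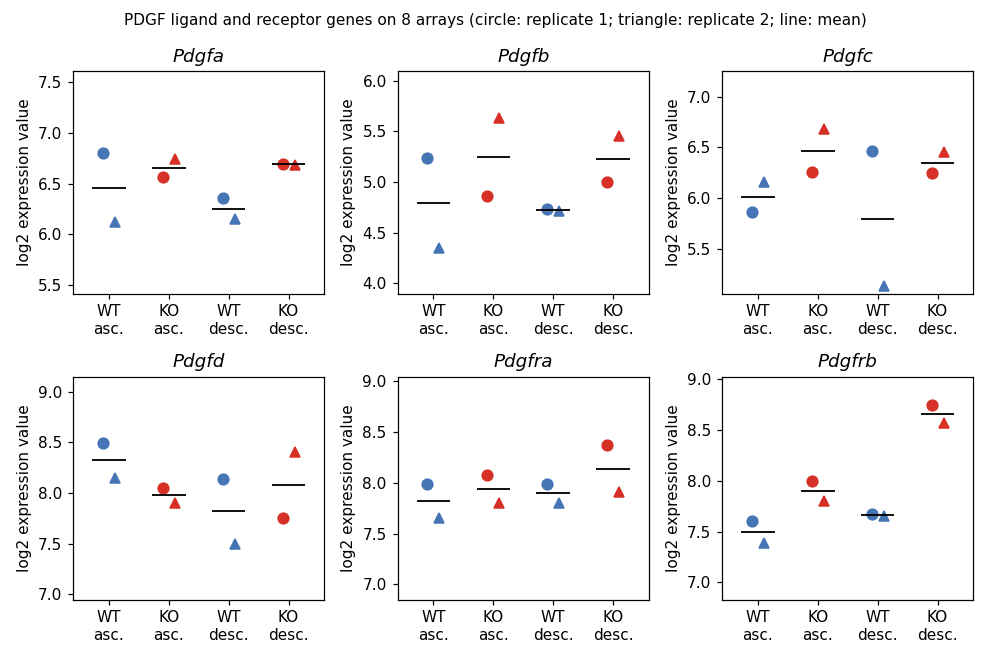
Log2 expression value (vertical axis, 2.2 units in each panel) of the 6 genes on the 8 arrays, by group on the horizontal axis: blue is wild-type (WT), red is knockout (KO), circles are replicate 1, triangles replicate 2, and lines are means of 2 arrays. For Pdgfrb every red point lies above every blue point, and the 2 knockout descending arrays (8.75 and 8.57) lie highest; for Pdgfc 1 wild-type descending array lies at 5.13.

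Pdgfra, the gene of the alpha receptor, did not pass the test. It stood at 7.99 and 7.65 in the wild-type ascending, 7.99 and 7.80 in the wild-type descending, 8.08 and 7.80 in the knockout ascending and 8.37 and 7.91 in the knockout descending arrays. The genotypes overlapped in both segments. The difference over both segments was 0.18 (SE 0.19, 95% interval -0.26 to 0.62, limma adjusted p = 0.744), and it was -0.06 after quantile normalization and 0.05 with the narrow arrays left out. It was 0.12 (SE 0.28) in the ascending and 0.24 (SE 0.28) in the descending aorta. The groups, ordered from wild-type ascending over wild-type descending and knockout ascending to knockout descending, had overlapping neighbours throughout.

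The distance between the receptors within an array is not touched by a shift common to the whole array. Pdgfrb minus Pdgfra was -0.38 and -0.27 in the wild-type ascending, -0.32 and -0.15 in the wild-type descending, -0.07 and -0.0012 in the knockout ascending and 0.37 and 0.66 in the knockout descending arrays. It was higher on every knockout array than on any wild-type array, by 0.52 on average. This quantity was formed after the values were seen and is a description, without a test. Its sign carries no meaning because the probes differ. The share of gene pairs with such a separation was not counted. Of the other differences formed, Pdgfb minus Pdgfa (0.17 on average), Pdgfb minus Pdgfrb (-0.22) and Pdgfa minus Pdgfra (0.13) overlapped between the genotypes.

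Among the ligands, Pdgfa stood at 6.80 and 6.12 in the wild-type ascending, 6.36 and 6.15 in the wild-type descending, 6.56 and 6.74 in the knockout ascending and 6.69 and 6.69 in the knockout descending arrays. The descending groups did not overlap, and the ascending groups did. The difference over both segments was 0.31 (SE 0.20, 95% interval -0.14 to 0.76, limma adjusted p = 0.572), with 0.19 in the ascending and 0.44 in the descending aorta. The lowest values of Pdgfa were those of both narrow wild-type arrays, and without them the difference was 0.09 over both segments and -0.15 in the ascending aorta. After quantile normalization it was 0.14 over both segments.

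Pdgfb, which encodes the ligand that endothelium supplies to mural cells, stood at 5.23 and 4.35 in the wild-type ascending, 4.74 and 4.71 in the wild-type descending, 4.86 and 5.63 in the knockout ascending and 5.00 and 5.45 in the knockout descending arrays. Again the descending groups were separate and the ascending groups overlapped. The difference was 0.48 (SE 0.26, 95% interval -0.11 to 1.06, limma adjusted p = 0.511) over both segments, 0.46 in the ascending and 0.50 in the descending aorta. With the narrow wild-type arrays left out, these became 0.25, 0.01 and 0.49. Cell types known to make PDGF-B did not share 1 direction over both segments, where 49.8% of all genes lay above 0. Of 15 endothelial markers 3 did (median difference -0.25 over both segments, -0.65 in the ascending and -0.06 in the descending aorta). Of 7 measured platelet and megakaryocyte markers 4 did (median 0.08). The mean of the endothelial markers was 6.63 to 6.87 in the wild-type ascending, 6.14 to 6.33 in the knockout ascending, 6.92 to 7.36 in the wild-type descending and 6.98 to 7.24 in the knockout descending arrays. That of the platelet markers was 5.99 to 6.37 in the wild-type and 6.21 to 6.36 in the knockout. Of 12 markers of myeloid cells, which include macrophages, all 12 lay above 0 (median 0.79). By limma 9 of them had an unadjusted p under 0.05 (11.4% of all genes) and 0 an adjusted p under 0.05 (0.0721%). The mean of the 12 was 6.72 to 7.45 on the wild-type and 7.65 to 8.08 on the knockout arrays. The part of these cells in the Pdgfb values was not tested.

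Pdgfc stood at 5.86 and 6.15 in the wild-type ascending, 6.46 and 5.13 in the wild-type descending, 6.26 and 6.68 in the knockout ascending and 6.25 and 6.45 in the knockout descending arrays. Here the ascending groups were separate and the descending groups overlapped, since the wild-type descending arrays held both extremes of that segment. The difference was 0.51 (SE 0.29, 95% interval -0.13 to 1.15, limma adjusted p = 0.524) over both segments. Leaving out 1 array moved it to between 0.17 (replicate 2 of the wild-type descending aorta left out) and 0.84 (replicate 1 of that group left out). With the narrow arrays left out together it was 0.25. The descending difference of 0.55 (SE 0.40) rested on wild-type descending replicate 2: without that array it was -0.11. The ascending difference was 0.46 (SE 0.40).

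Pdgfd stood at 8.50 and 8.15 in the wild-type ascending, 8.14 and 7.50 in the wild-type descending, 8.05 and 7.91 in the knockout ascending and 7.75 and 8.40 in the knockout descending arrays. It was the one member whose knockout arrays lay below the wild-type arrays in the ascending aorta, an arrangement seen in 18.3% of all genes. The difference was -0.35 (SE 0.32) in the ascending aorta, 0.26 (SE 0.32) in the descending aorta and -0.04 (SE 0.23, 95% interval -0.56 to 0.47, limma adjusted p = 0.956) over both. The difference between these 2 effects was -0.60 (SE 0.46, limma adjusted p = 1) and did not pass. Without wild-type descending replicate 2 the descending value was -0.06. Over both segments the value was -0.29 once the narrow arrays were left out.

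**Figure D2:**
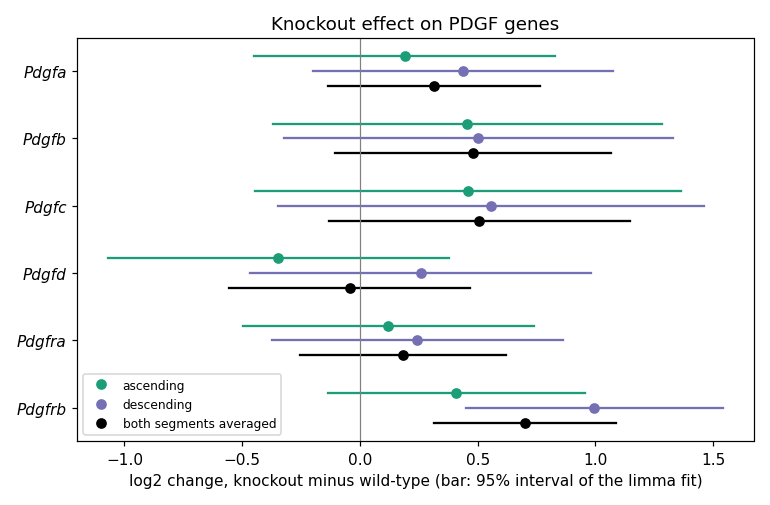
Log2 difference between knockout and wild-type (horizontal axis) for each gene (vertical axis) in the ascending aorta (green), the descending aorta (purple) and averaged over both (black); points are estimates and bars 95% intervals of the limma fit, not adjusted for the number of genes. The intervals of Pdgfrb in the descending aorta and over both segments start above 0, at 0.45 and 0.32, and the other 16 intervals include 0.

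Counted together, 0 of the 6 genes had a limma adjusted p under 0.05 in the knockout effect over both segments, where 0.0721% of all genes did. At an unadjusted p under 0.05, Pdgfrb was the single member that passed, against 11.4% of all genes, 7.57% being higher in the knockout. In the ascending aorta 0 of the 6 genes passed with either p, against 0.0% of all genes with the adjusted and 8.9% with the unadjusted p. In the descending aorta 0 passed with the adjusted p (0.00451% of all genes) and 1, again Pdgfrb, with the unadjusted (5.95%). Of the 6 genes, 2 in the ascending (Pdgfc and Pdgfrb) and 3 in the descending aorta (Pdgfa, Pdgfb and Pdgfrb) had both knockout arrays above both wild-type arrays, which 21.5% and 21.6% of all genes had. Of these, Pdgfrb did so in both segments. Both knockout arrays lay below both wild-type arrays for Pdgfd in the ascending aorta (18.3% of all genes) and for 0 of the 6 genes in the descending (15.8%). Over both segments 5 of the 6 differences lay above 0, as did 49.8% of all genes. In the ascending aorta 5 of 6 did (49.3% of all genes) and in the descending aorta 6 of 6 (53.7%). The median difference over both segments was 0.24 in the brightness group of Pdgfa, Pdgfd, Pdgfra and Pdgfrb. It was 0.14 in that of Pdgfc and -0.04 in that of Pdgfb. Each brightness group held 4436 genes, and each percentile is that within the gene's own group. Pdgfa stood at percentile 59.5, Pdgfra at 41.8 and Pdgfd at 17.0. Pdgfc stood at 90.3, Pdgfrb at 93.5 and Pdgfb at 95.5. The counts above 0 therefore do not show a rise of the whole family.

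The segment difference was asked in each genotype. In the wild-type 0 of the 6 genes passed with the adjusted p (0.00902% of all genes) or with the unadjusted p (6.19%). The largest ascending minus descending difference there was that of Pdgfd, 0.51 (SE 0.32, limma adjusted p = 0.845), and its wild-type ascending arrays (8.50 and 8.15) lay just above the wild-type descending ones, as in 15.9% of all genes. The opposite arrangement, with both ascending arrays below, was that of Pdgfrb (14.1%). The wild-type differences of Pdgfa (0.21), Pdgfb (0.07), Pdgfc (0.21) and Pdgfra (-0.08) were all smaller than their standard errors. In the knockout 0 of 6 passed with the adjusted p (0.0% of all genes) and Pdgfrb alone with the unadjusted p (4.04%). Its knockout ascending arrays lay below the descending ones, as did those of 20.8% of all genes, and 0 of 6 members had the opposite arrangement (18.3%). The difference between the knockout effects of the segments did not pass for any of the 6 with the adjusted (0.0% of all genes) or the unadjusted p (3.3%).

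Pdgfrb is itself used as a marker of mural cells and fibroblasts, so the markers of those cells are given beside it. All 12 smooth muscle and pericyte markers lay above 0 over both segments, as did 49.8% of all genes. Their median difference was 0.20, against -0.0013 over all genes and 0.24 over the brightest 20% of genes. Of those brightest genes 17.0% lay below the -0.04 of Pdgfd, and their share above 0 was not counted. By limma, 0 of the 12 had an adjusted p under 0.05 (0.0721% of all genes), and 2, Cspg4 and Smtn, had an unadjusted p under 0.05 (11.4% of all genes). Cspg4, the pericyte proteoglycan NG2, stood 0.72 (SE 0.21) higher in the knockout, and the contractile gene Smtn 0.58 (SE 0.18). Rgs5 (0.17), Notch3 (0.10), Abcc9 (0.09) and Kcnj8 (0.03), other mural cell genes, differed less. For the segment difference within the knockout, where Pdgfrb stood at -0.75, 6 of the 12 markers lay above 0 and 6 below, with a median of 0.07. The 2 with an unadjusted p under 0.05, Abcc9 (-0.64, SE 0.26) and Kcnj8 (-0.93, SE 0.39), were lower in the ascending aorta, and neither had an adjusted p under 0.05. The mean of the 12 markers was 8.69 to 8.76 in the wild-type ascending, 8.72 to 8.85 in the wild-type descending, 8.96 to 9.03 in the knockout ascending and 9.05 to 9.09 in the knockout descending arrays. It thus lay higher on the knockout arrays. The size of this rise is not compared with that of Pdgfrb, because a mean over 12 genes tends to vary less than a single gene. Of the markers named here, Cspg4 (0.72) differed about as much as Pdgfrb (0.70), and the others less. Of 11 adventitial fibroblast markers 9 lay above 0 with a median of 0.06, and their mean was 9.46 to 9.74 on the wild-type and 9.60 to 9.85 on the knockout arrays.

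The mean of 12 cardiomyocyte markers was also highest where Pdgfrb was: 7.14 to 7.29 in the knockout descending and 6.24 to 6.70 on the other 6 arrays. In the descending knockout effect 10 of the 12 lay above 0 (53.7% of all genes). Within the knockout they went both ways: 8 were lower in the ascending than in the descending aorta and 4 higher. By limma 5 were lower and 2 higher with an unadjusted p under 0.05 (4.04% of all genes), and 0 had an adjusted p under 0.05. The myeloid markers given beside Pdgfb were, in the mean, higher on every knockout array than on any wild-type array. The means of the 8 measured Schwann cell and glia markers (4.90 to 5.24), of the 8 cartilage markers (5.21 to 5.61) and of the 2 measured erythroid markers (5.36 to 5.68) overlapped between the genotypes. The part of any of these cell types in the Pdgfrb values was not tested. Values of this kind have no zero, so the absence of a marker could not be read from them.

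**Figure D3:**
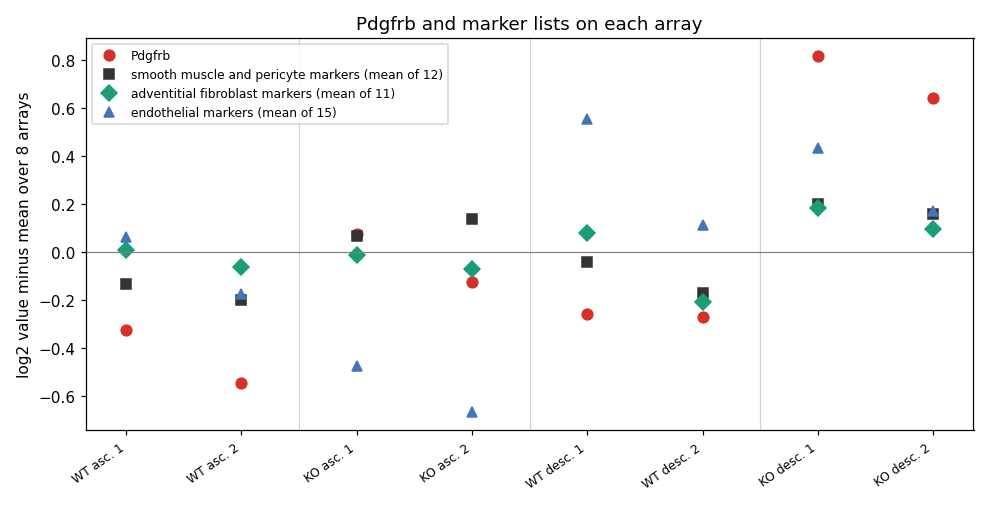
Log2 value minus its mean over the 8 arrays (vertical axis) on each array (horizontal axis) for Pdgfrb (red) and for the mean of 12 smooth muscle and pericyte, 11 adventitial fibroblast and 15 endothelial markers. Pdgfrb spans a wider range than the mural and fibroblast means, as a single gene tends to do beside a mean of many. The endothelial mean is lowest on the knockout ascending arrays.

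Genes that act on PDGF ligands and receptors were then counted in 7 lists, chosen with earlier results of these data known. Several of them, such as Lrp1, Itgav and Plau, are also expressed by macrophages, and the part of the higher myeloid markers in their values was not tested. Of all genes, 49.8% lay above 0 over both segments, and by limma 11.4% had an unadjusted and 0.0721% an adjusted p under 0.05. The median of genes of like brightness was 0.24 in the brightest 20% and 0.14 in the next 20%. Most of these bright genes thus lay above 0 too, and their share was not counted. Because the lists were chosen with earlier results known, their counts are a description. Of the 7 proteases that process PDGF precursors, 4 lay above 0 (median 0.28) and 0 had an adjusted p under 0.05 (2 had an unadjusted p under 0.05). These 2 were Plau, the urokinase that can activate PDGF-D (0.59, SE 0.19), and the proprotein convertase Pcsk5 (0.58, SE 0.18). Both had knockout arrays above the wild-type arrays in each segment, as had 21.5% of all genes in the ascending and 21.6% in the descending aorta. For Plau the descending gap was narrow (lowest knockout array 6.86, highest wild-type array 6.84). Pcsk6 (-0.08) and St14 (-0.07) lay near 0. Of 7 measured co-receptors and binding proteins, 6 lay above 0 (median 0.45) and 0 had an adjusted p under 0.05 (3 had an unadjusted p under 0.05). Lrp1, an endocytic receptor that associates with the beta receptor, stood at 8.29 and 8.10 in the wild-type ascending, 8.22 and 8.04 in the wild-type descending, 9.09 and 8.78 in the knockout ascending and 9.15 and 8.96 in the knockout descending arrays. Its difference was 0.84 (SE 0.18, limma adjusted p = 0.163). Every knockout array lay above every wild-type array, as in 4.76% of all genes. The integrin subunit Itgav differed by 0.89 (SE 0.19, limma adjusted p = 0.17), and Cav1, the caveolin of plasma membrane pits, by -0.34 (SE 0.21).

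Downstream of the receptors, 24 of 26 measured adaptors and kinases lay above 0 (49.8% of all genes). Their median was 0.18, between the 0.14 and 0.24 of the groups of bright genes, whose share above 0 was not counted. By limma 0 had an adjusted p under 0.05 (0.0721% of all genes), and 6 had an unadjusted p under 0.05 (11.4%), all higher. The kinase Map2k1 differed by 0.66 (SE 0.23) and the adaptor Gab1 by 0.47 (SE 0.17), while Map2k2 (-0.11) and the transcription factor Stat5a (-0.03) were the 2 members below 0. Of 17 measured negative regulators 14 lay above 0 (median 0.37), 1 rose with an adjusted p under 0.05 and 5 had an unadjusted p under 0.05. The gene that rose was Errfi1, which encodes a feedback inhibitor better known for the EGF receptor. It stood at 6.67 and 7.01 in the wild-type ascending, 6.85 and 7.22 in the wild-type descending, 8.39 and 8.58 in the knockout ascending and 8.38 and 8.47 in the knockout descending arrays. Its difference was 1.52 (SE 0.19, 2.86-fold, limma adjusted p = 0.0242). Cbl, a ubiquitin ligase that targets activated receptors, differed by 0.70 (SE 0.17, limma adjusted p = 0.208). Socs1 (-0.36, SE 0.30) and the phosphatase gene Dusp6 (-0.16, SE 0.22) lay below 0.

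Of the 5 VEGF ligands, which share the cystine-knot fold of PDGF, 1 rose. Vegfd stood at 6.43 and 6.66 in the wild-type ascending, 8.72 and 8.24 in the wild-type descending, 8.75 and 8.54 in the knockout ascending and 9.72 and 9.73 in the knockout descending arrays. Its difference was 1.67 (SE 0.19, 3.19-fold, limma adjusted p = 0.0202), against 0.17 for Vegfa and -0.06 for Pgf. The calls of Errfi1 and Vegfd were each lost in 8 of 16 alternatives: after quantile normalization (adjusted p = 0.178 and 0.0569), with every row of the table tested (0.265 for both), and without any single descending or knockout array, where the adjusted p ran from 0.0728 to 0.226. They held without either wild-type ascending array. Of the 6 receptor kinases related to the PDGF receptors, 5 lay above 0 (median 0.16) and 0 had an adjusted p under 0.05 (1 had an unadjusted p under 0.05). This was Flt1, a VEGF receptor, with a difference of 1.17 (SE 0.20, limma adjusted p = 0.0904). Csf1r, the macrophage growth factor receptor, differed by 0.42 and the endothelial receptor Kdr by -0.47.

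The 12 genes listed as early responders to PDGF, which also answer to serum and other growth factors, all lay above 0 over both segments. Their median difference was 0.78. By limma 0 had an adjusted p under 0.05 (0.0721% of all genes) and 9 an unadjusted p under 0.05 (11.4%). Ccn1, a secreted matrix-associated protein, differed by 1.63 (SE 0.32, limma adjusted p = 0.132) and Ier3 by 1.43 (SE 0.29, limma adjusted p = 0.146). The mean of the 12 genes was 6.80 and 6.17 in the wild-type ascending, 6.74 and 6.10 in the wild-type descending, 7.46 and 7.46 in the knockout ascending and 6.81 and 7.19 in the knockout descending arrays. The lowest values were those of both narrow wild-type arrays, and without them the median was 0.38. The other medians were then 0.18 for the proteases, 0.29 for the co-receptors, 0.07 for the adaptors and kinases, 0.07 for the negative regulators, 0.06 for the VEGF ligands and 0.08 for the related receptor kinases. The median over all genes was -0.0094 without these arrays. Counts above 0 and medians of genes of like brightness were not recomputed without them.

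**Figure D4:**
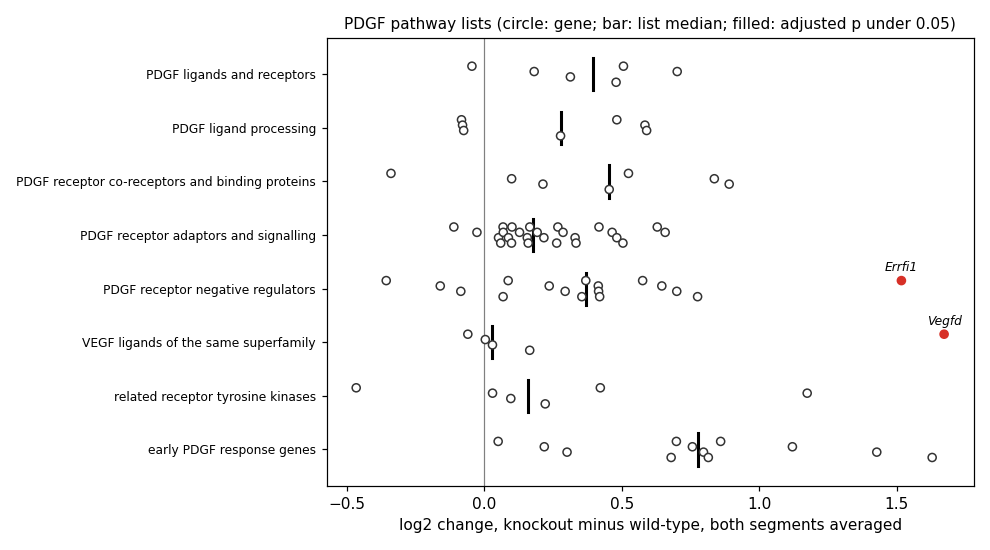
Log2 difference between knockout and wild-type averaged over both segments (horizontal axis) for the PDGF genes and the 7 pathway lists (vertical axis); each circle is a gene, black bars are list medians, the grey line is the median of all genes, and filled circles have a limma adjusted p under 0.05. The filled circles are Errfi1 (1.52) and Vegfd (1.67), and the early response genes have the highest median (0.78).

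The genes whose values followed each PDGF gene most closely over the 8 arrays were found by Pearson's r, which is given as a description; high values are common when 22180 genes are searched over 8 arrays that share processing and tissue pools. For Pdgfrb these were Cldn22 (0.975), Ormdl1 (0.965) and Pcolce (0.962), the last an enhancer of procollagen processing. For Pdgfra they were Dusp2 (0.981), Fli1 (0.964) and Zfp931 (0.956). For Pdgfa they were Dido1 (0.986), Mapk6 (0.977) and Anapc7 (0.973), and for Pdgfb Trak2 (0.983), Fgfr1op2 (0.973) and Nfyc (0.954). Pdgfc was followed by Aida (0.97), B3galnt1 (0.963) and Rbm6 (0.96), and Pdgfd by Zfp366 (0.965), Ski (0.952) and Fam193b (0.928). Within the family, r over the 8 arrays was 0.855 between Pdgfa and Pdgfb and 0.713 between the receptor genes. It was 0.435 between Pdgfb and Pdgfrb, and Pdgfd stood at -0.07 with Pdgfrb.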

How the data were processed

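RNA from pools of 8 aortic segments was amplified from a few nanograms and labelled with biotin, per the labels' protocols, and read on 8 arrays. The deposited log2 values came, per the submitters' processing notes, from RMA in Affymetrix Expression Console. Neither version nor genome build is given in the sources used here, so no coordinates are printed. RMA compresses the differences of dim genes.

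Of 41345 rows, 23521 had 1 gene symbol in the platform annotation, 1814 several and 16010 none. The row with the highest mean was kept per gene, which left 22180 genes. In limma 3.58.1 (R 4.3.3) each of the 4 groups had its own mean (4 residual and 5.52 prior degrees of freedom), and p-values were Benjamini-Hochberg adjusted over all 22180 genes within a comparison. A gene was called at an adjusted p under 0.05. Arrays of 1 group are biological replicates per the labels, and their small number limits the precision.

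The members, lists and tests were chosen with earlier results of these data known. The text names the members and up to 2 genes per direction with the smallest p in each pathway list. It also names the 3 searched genes with the highest r per member, and markers beside a member. Alternatives were other scalings, filters, row choices, variance models, a replicate block, only the groups compared, and leaving out each array. Plots were made in Python 3.11.15 (matplotlib 3.10.9).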

Additional observations from a re-analysis of the deposited data

How the results depend on the processing

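None of the 6 PDGF genes was called in any of the 6 comparisons under any of the 17 alternatives (smallest limma adjusted p 0.136). Of 600 member values under alternatives 41 changed sign, in 20 of 36 member results, each with an interval that includes 0; all Pdgfrb results kept their sign. By limma, counts of genes called over both segments were 2 after quantile normalization, 35 without the dimmest 25% of genes, 1 with every row of the table, 25 without both wild-type replicate 2 arrays (chosen after seeing the data), and 0 to 50 leaving out 1 array. In the ascending aorta they were 1 without the dimmest 25%, 4 with limma's trend and robust options, 11 without both wild-type replicate 2 arrays and 0 to 14 leaving out 1 array. In the descending aorta they were 0 after centring, quantile normalization, every row, the replicate block and only the groups compared, 2 without the dimmest 25%, 4 with trend and robust, 7 without both wild-type replicate 2 arrays and 0 to 2 leaving out 1 array. For the wild-type segment difference they were 1 after quantile normalization, 0 with every row or only the groups compared, 9 without both wild-type replicate 2 arrays and 0 to 23 leaving out 1 array. For the knockout segment difference they were 2 without the dimmest 25% and 2 with trend and robust. For the difference between segments the count was 1 without both wild-type replicate 2 arrays. The causes of these shifts were not tested.

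With the replicate number as a block the counts were 19 over both segments, 0 in the descending aorta and 1 for the wild-type segment difference, and Pdgfrb had an adjusted p of 0.204 over both segments. Deviations of same-numbered arrays correlated between -0.08 and 0.29. The highest value was that of the wild-type ascending and descending arrays, whose replicate 2 arrays are both narrow, and the knockout segments had -0.02. The check therefore does not settle pairing in the wild-type. The labels do not say that the numbers pair the pools, so they were not taken as pairs.

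After quantile normalization Pdgfra turned to -0.058 over both segments, -0.11 in the ascending and -0.0077 in the descending aorta. After centring, Pdgfa stood at 0.0023 in the knockout segment difference, and with the mean of all rows Dusp6 stood at 0.092. Without both wild-type replicate 2 arrays the ascending values were -0.15 for Pdgfa and -0.049 for Pdgfra, the descending values -0.11 for Pdgfc and -0.061 for Pdgfd, Pdgfc stood at -0.60 in the wild-type segment difference and 0.72 in the difference between segments, and Stat5a (0.12) and Vegfa (-0.16) turned over both segments.

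Leaving out 1 array at a time gave these ranges where a sign turned. In the ascending effect they were -0.15 to 0.53 for Pdgfa and -0.049 to 0.29 for Pdgfra, and in the descending effect -0.11 to 1.22 for Pdgfc and -0.067 to 0.58 for Pdgfd. Over both segments they were -0.21 to 0.12 for Pdgfd, -0.25 to 0.027 for Map2k2, -0.17 to 0.049 for Pgf, -0.21 to 0.065 for St14, -0.32 to 0.26 for Stat5a and -0.018 to 0.35 for Vegfa. In the wild-type segment difference they were -0.13 to 0.55 for Pdgfa, -0.37 to 0.51 for Pdgfb, -0.45 to 0.88 for Pdgfc and -0.25 to 0.091 for Pdgfra. In the knockout segment difference they were -0.13 to 0.049 for Pdgfa, -0.36 to 0.41 for Pdgfb, -0.092 to 0.33 for Pdgfc, -0.42 to 0.23 for Pdgfd and -0.43 to 0.032 for Pdgfra. In the difference between segments they were -0.59 to 0.089 for Pdgfa, -0.49 to 0.40 for Pdgfb, -0.76 to 0.57 for Pdgfc and -0.36 to 0.11 for Pdgfra.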

Other observations

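Pdgfrl, a gene named for its likeness to the extracellular part of the PDGF receptors, was not among the family members or the lists and was looked at after their values were seen. It stood at 8.47 and 8.88 in the wild-type ascending, 8.89 and 8.61 in the wild-type descending, 8.97 and 9.01 in the knockout ascending and 9.46 and 8.91 in the knockout descending arrays. Both knockout arrays lay above both wild-type arrays in each segment, which 21.5% of all genes had in the ascending and 21.6% in the descending aorta. In the descending aorta the lowest knockout array (8.91) lay just above the highest wild-type array (8.89). The difference over both segments was 0.38 (SE 0.20, 95% interval -0.08 to 0.83, limma adjusted p = 0.509), which did not pass.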
